A study of Rattus norvegicus with 20 samples.

Results

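The endoplasmic reticulum (ER) folds the secreted and membrane proteins of a cell, and 35 genes of its chaperones, its quality control and its stress response were examined in the nucleus accumbens shell of alcohol-preferring (P) rats. They were found by gene symbol in the platform's annotation, and each gene is shown by its brightest probe set on average across the 20 arrays. Of the 35 genes, 34 had a probe set, and Ern1, the IRE1 sensor, was not analysed here. A probe set whose mean lay below 6.65 on the log2 scale, the lowest 33.3% of all, was called dim, and 32 of the 34 were brighter, among 10746 genes tested in all. Atf3 and Trib3 lay below that level and are described without a place in the main test.

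P rats descend from selection for drinking much ethanol by choice, and the accumbens shell is a ventral striatal region involved in reward. Ethanol at 15 and 30% was offered to 10 animals in adolescence, and 10 water animals of the same line served as controls. Each animal gave 1 array hybridised with cRNA of whole tissue. Values are on the log2 scale after RMA, and a difference is always ethanol minus water.

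The ER holds a buffer of chaperones led by BiP, the product of Hspa5, which bind unfolded chains and keep the membrane sensors PERK, IRE1 and ATF6 silent. When unfolded protein builds up, ATF6 is cut to a transcription factor and IRE1 splices Xbp1 mRNA, and both factors raise chaperones, disulfide isomerases and degradation genes. The sensor PERK (Eif2ak3) phosphorylates eIF2α, which slows translation and favours that of Atf4. ATF4 raises another set of genes, among them Ddit3, Atf3, Trib3, Ppp1r15a and Asns, which can also respond to amino acid shortage or, for Atf3 and Ppp1r15a, to acute stimulation of the cell. Neurons carry a large secretory load through peptides, receptors and synaptic membranes. The arrays read mRNA level, not Xbp1 splicing, ATF6 cleavage or phosphorylation. Less of a cell type and less RNA per cell cannot be told apart in whole tissue.

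The promoter stretches printed here carry the elements through which ATF6 and XBP1, or ATF4, are known to act, and show which genes of the group hold which. RefSeq windows (assembly GRCr8, 250 bases before to 50 after the start) were found for 28 of the 35 genes, and Manf, Pdia3, Pdia6, Derl1, Ern1, Atf6 and Atf3 had no entry. The ER stress response element (ERSE) was searched on both strands as CCAAT, 9 bases of any kind, and CCACG. It was present in 22 of 33469 windows (0.0657%), and in 7 of the 28 genes: Hspa5, Hsp90b1, Dnajc3, Creld2, Calr, Canx and Xbp1. The related ERSE-II, which is ATTGG, 1 base of any kind and CCACG, was present in 17 windows (0.0508%), among them those of Hyou1, Dnajb11 and Herpud1. Of 12 chaperones and isomerases with an entry, 8 held at least 1 of these elements, and of 4 ATF4-type targets 0 did. Capitals mark the fixed letters of the ERSE, the ERSE-II and the core, and all 9 bases of the ATF4 element with its N positions, read 5′ to 3′ on the strand of the gene. On the opposite strand an ERSE reads CGTGG, 9 bases and ATTGG, and an ERSE-II reads CGTGG, 1 base and CCAAT.

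Hspa5 (BiP), chr3:38452869-38453003, plus strand: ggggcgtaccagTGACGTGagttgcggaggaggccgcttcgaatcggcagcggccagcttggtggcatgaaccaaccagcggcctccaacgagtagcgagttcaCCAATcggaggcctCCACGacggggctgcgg
Hsp90b1 (GRP94), chr7:23012335-23012481, minus strand: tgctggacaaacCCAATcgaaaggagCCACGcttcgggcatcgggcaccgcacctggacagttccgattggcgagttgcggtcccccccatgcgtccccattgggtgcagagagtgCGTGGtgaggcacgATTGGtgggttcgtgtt
Hyou1, chr8:53602679-53602816, plus strand: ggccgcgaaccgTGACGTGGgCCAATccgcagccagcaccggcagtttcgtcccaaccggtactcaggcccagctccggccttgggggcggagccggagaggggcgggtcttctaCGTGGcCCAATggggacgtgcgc
Calr, chr19:40213123-40213165, plus strand: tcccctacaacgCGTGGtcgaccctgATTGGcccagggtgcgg
Canx, chr10:35158057-35158099, minus strand: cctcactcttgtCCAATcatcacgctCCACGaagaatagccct
Xbp1, chr14:84604546-84604588, plus strand: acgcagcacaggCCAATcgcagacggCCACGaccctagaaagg
Herpud1, chr19:10614809-10614904, minus strand: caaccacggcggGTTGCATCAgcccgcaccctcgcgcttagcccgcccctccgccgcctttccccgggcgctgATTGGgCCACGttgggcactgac
Trib3, chr3:161275535-161275567, minus strand: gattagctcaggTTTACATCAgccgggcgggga

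Hsp90b1 carried 2 ERSE, on opposite strands, and Hyou1 carried 2 ERSE-II. The first capitals of Hspa5 and of Hyou1 are the core TGACGTG, to which XBP1 and ATF6 can bind, present in 1.81% of all windows. In Hyou1 this core overlaps the first ERSE-II. Herpud1 and Trib3 held the C/EBP and ATF composite element read by ATF4, TGATGNAAN, here on the opposite strand, and it was present in 3.97% of all windows. Herpud1 was the single gene of the 28 with an element of both kinds. A match is a match of letters and shows no binding, and no match shows only that these letters are not in this window.

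Before the results, 3 water arrays need naming. In water animals 17, 19 and 20 the mean of 13 measured markers of medium spiny neurons, the main neurons of this region, was 12.10, 12.34 and 11.78, against 12.59 to 13.21 in the other 17 animals. Their mean of 9 oligodendrocyte markers was 12.07, 11.87 and 11.94 (11.10 to 12.04 in the others), and that of 10 microglial markers 9.43, 9.52 and 9.68 (9.19 to 9.45). All 13 spiny neuron markers on the array were above the dim level, while 5 of 6 choroid plexus markers, Ttr among them, and 4 of 6 cortical markers were dim or without a probe set. The median correlation of their arrays with the others was 0.980, 0.988 and 0.972, and that of water animal 12 was 0.982, against 0.989 to 0.994 in the other 16. The spiny neuron mean of animal 12 was 12.86, within the range of the others. Differences of the ER genes, and of the further pathway genes named, are therefore also given without animals 17, 19 and 20. They were known from earlier results of these data to stand apart, so leaving them out is no independent check.

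No gene of the ER group passed the test between ethanol and water. Of 32 genes tested, 0 were higher and 0 lower (limma, Benjamini-Hochberg over 20695 probe sets, adjusted p from 0.151 to 0.988), where 0.0931% of all genes tested passed. At an unadjusted p under 0.05, 3 genes were lower (Sec62, Hyou1 and Pdia3) and 1 was higher (Ppp1r15a). That is 9.38 and 3.12% of the 32, beside 4.77 and 5.24% of all genes. For each of the 34 genes the values of the groups overlapped, as they did for all but 0.0651% of all genes. The 95% intervals of the 32 genes lay between -0.38 and 0.29. The median difference was -0.038, against 0.00016 over all genes, and 24 of 32 were negative. Without animals 17, 19 and 20, 18 of 32 were negative and the median was -0.0057.

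**Figure D1:**
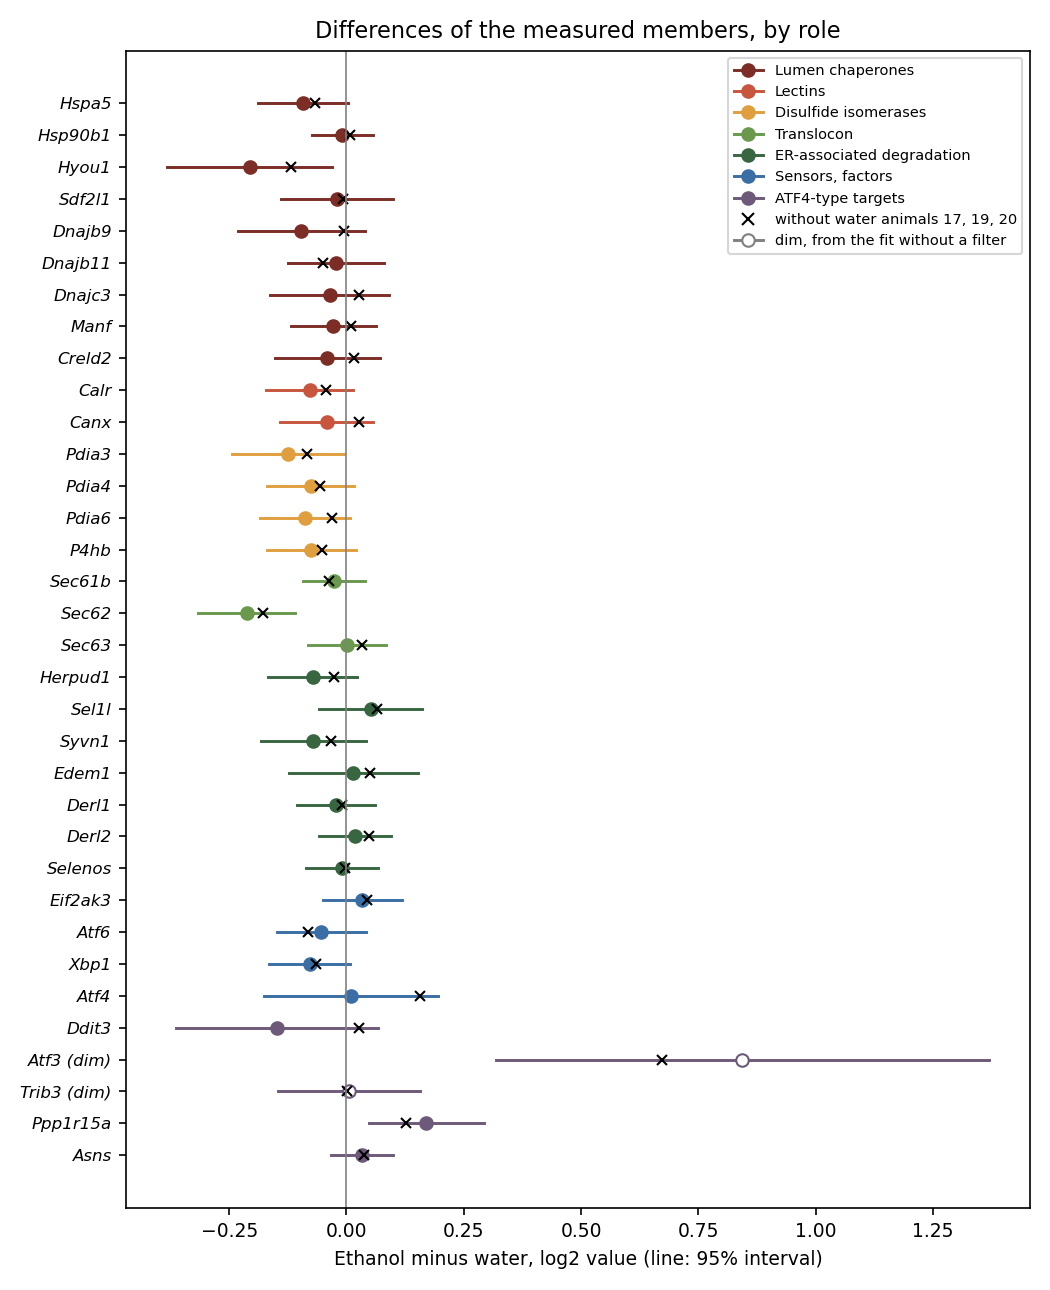
Difference between ethanol and water (log2) of the 34 measured ER genes, coloured by role, with 95% intervals as lines and crosses for the difference without water animals 17, 19 and 20. All 15 chaperones and isomerases lie left of 0, the crosses of 14 of these 15 lie closer to 0 than the points, and Atf3, which is dim, has the widest interval.

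The chaperones of the ER lumen were all slightly lower in ethanol, none of them past the threshold. Of the 15 chaperones, lectins and isomerases, 15 had a negative difference, where 49.9% of all genes did, with a median of -0.075. Without water animals 17, 19 and 20, 10 of 15 were negative, where 44.5% of all genes were, and the median was -0.032, against 0.0092 over all genes. The 15 genes are correlated with each other, so their common sign is not 15 separate observations.

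Hspa5, the master chaperone BiP, ran from 13.07 to 13.37 in ethanol (median 13.19) and from 13.17 to 13.39 in water (median 13.32). It was lower in ethanol by 0.093 ± 0.046 (SE, 1.07-fold, adjusted p = 0.42), with a difference of -0.066 without the 3 water animals. 4 ethanol animals lay below the lowest water animal, and 0 lay above the highest. Hyou1, a large Hsp70-type chaperone that recharges BiP, ran from 8.25 to 8.63 in ethanol (median 8.56) and from 8.43 to 9.41 in water (median 8.69). Its difference of -0.21 ± 0.085 (adjusted p = 0.364) was the widest of the chaperones. The value of 9.41 belonged to water animal 20, the next water value was 8.76, and without animals 17, 19 and 20 the difference was -0.12. The second probe set of Hyou1, which was dim, differed by -0.042, and by -0.0051 without these animals.

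Hsp90b1, the ER member of the Hsp90 family, was the steadiest chaperone between groups, at 13.19 ± 0.059 in ethanol and 13.20 ± 0.043 in water (SD, n = 10 each, difference -0.0086, 95% interval -0.073 to 0.056), and it differed by 0.0082 without the 3 animals. The J-domain partners of BiP differed by -0.096 (Dnajb9), -0.022 (Dnajb11) and -0.036 (Dnajc3), the last pair by -0.049 and 0.026 without the 3 animals. Dnajb9 lay below the water mean in 10 of 10 ethanol animals, but its water values spread from 10.51 to 11.19. Animals 17, 19 and 20 were at 10.99, 11.05 and 11.19, and without them the difference was -0.0047. Sdf2l1, a partner of the J-domain proteins, and Manf and Creld2, small secreted proteins induced by ER stress, differed by -0.020, -0.028 and -0.041. Without the 3 animals Sdf2l1 differed by -0.0067, and Manf and Creld2 by 0.010 and 0.015, with the opposite sign.

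The lectins of the calnexin cycle, which hold glycoproteins until they are folded, were Calr (-0.079, adjusted p = 0.474) and Canx (-0.042, adjusted p = 0.718). Without the 3 water animals they differed by -0.043 and 0.026. The 2 further probe sets of Canx differed by -0.037 and -0.026, and by 0.070 and 0.10 without these animals.

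The 4 disulfide isomerases, which form and reshuffle disulfide bonds, kept a negative difference with and without the 3 water animals. Pdia3, which works with calnexin and calreticulin, ran from 11.09 to 11.47 in ethanol (median 11.24) and from 11.18 to 11.58 in water (median 11.35). It was lower by 0.12 ± 0.058 (SE, adjusted p = 0.402), and 2 ethanol animals lay below the lowest water animal. Its other probe set differed by -0.078, and by -0.056 without the 3 water animals. Pdia6, Pdia4 and P4hb, the founding member PDI, were lower by 0.088, 0.077 and 0.075 (adjusted p = 0.447, 0.481 and 0.501). Without animals 17, 19 and 20 the 4 genes differed by -0.084, -0.032, -0.056 and -0.053 in the order Pdia3, Pdia6, Pdia4 and P4hb.

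In the translocon, the channel through which new chains enter the ER, 2 of 3 genes had a negative difference and none passed. Sec62, which serves post-translational entry and ER turnover, ran from 12.07 to 12.37 in ethanol (median 12.25) and from 12.30 to 12.63 in water (median 12.46). It had the smallest p of the group, with a difference of -0.21 ± 0.050 (SE, adjusted p = 0.151), and 7 of 10 ethanol animals lay below the lowest water animal. Its second probe set differed by -0.040 (adjusted p = 0.696). Leaving out the 3 water animals gave -0.18 on the first probe set and 0.0070 on the second, and the mean of both over all animals differed by -0.13 (adjusted p = 0.366). Sec63, the J-domain partner of BiP at the channel, differed by 0.0018, -0.054 and -0.19 on its 3 probe sets above the dim level, with adjusted p = 0.988, 0.604 and 0.327, and by 0.034, -0.021 and -0.18 without the 3 animals. Sec61b, a channel subunit, differed by -0.027 (-0.038 without them).

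The genes of ER-associated degradation, which export misfolded proteins to the proteasome, did not move to one side. Of 7, 4 were negative and 3 positive, with a median of -0.0096 and adjusted p from 0.517 upwards. Without the 3 water animals 4 of 7 were negative, with a median of -0.0032. Herpud1, a scaffold of the export complex with both element types in its promoter, differed by -0.072, and Syvn1, the ubiquitin ligase HRD1, by -0.071. Without the 3 animals these were -0.027 and -0.033. Sel1l, which holds HRD1, differed by 0.051 and Edem1, which delivers glycoproteins, by 0.015, and without the 3 animals by 0.064 and 0.050. The channel proteins Derl1 and Derl2 and their partner Selenos differed by -0.022, 0.018 and -0.0096, and by -0.010, 0.047 and -0.0032 without the 3 animals. The further probe sets of Derl1 had the opposite sign, 0.0078 and 0.076 (0.038 and 0.051 without the 3 animals). The second probe set of Derl2 differed by 1.5e-05 (-0.013 without them).

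Among sensors and transcription factors, Xbp1 was the nearest to the threshold. It ran from 11.66 to 11.9988 in ethanol (median 11.83) and from 11.80 to 12.03 in water (median 11.88), with a difference of -0.079 (adjusted p = 0.452), and 4 ethanol animals lay below the lowest water animal. Atf6 differed by -0.054 (adjusted p = 0.628) and Eif2ak3 by 0.034 (adjusted p = 0.736). Without the 3 water animals Xbp1, Atf6 and Eif2ak3 differed by -0.065, -0.081 and 0.045. The second probe set of Atf6, which was dim, had the opposite sign, 0.090, and 0.080 without these animals. Atf4 had almost equal means, 11.94 ± 0.083 in ethanol and 11.93 ± 0.29 in water (SD, n = 10 each). Its water values ran from 11.43 to 12.47, with animals 17, 19 and 20 at 12.21, 12.16 and 12.47. Without them the difference was 0.16. Water animal 12, which stays in that difference, held the lowest value, 11.43 (next 11.76), and its share was not tested.

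**Figure D2:**
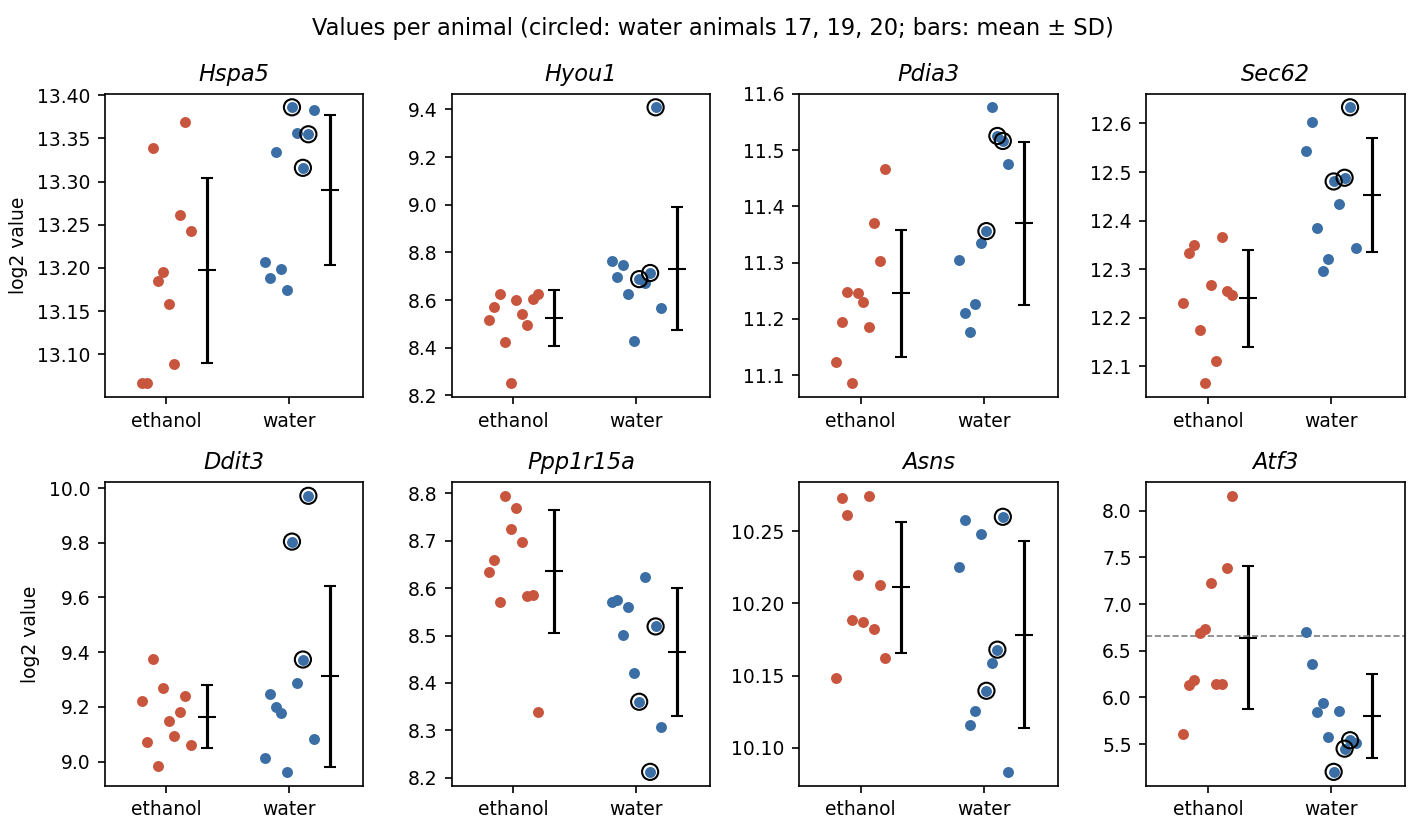
Log2 values of 8 ER genes in each animal (points, 10 per group), with mean ± SD at the side, water animals 17, 19 and 20 circled, and the dim level of 6.65 dashed for Atf3. The circled points are high for Hyou1 (animal 20) and Ddit3 (animals 17 and 20) and below the water median for Atf3, while Sec62 separates most of the groups, with 3 of 10 ethanol points above the lowest water point.

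Over all animals the ATF4-type targets did not share a direction. Of the 3 above the dim level 1 was negative, where 49.9% of all genes were. Without the 3 water animals 0 were negative, where 44.5% of all genes were. Ppp1r15a (GADD34), which recruits the phosphatase that reverses eIF2α phosphorylation, was higher in ethanol by 0.17 ± 0.059 (SE, 1.13-fold, adjusted p = 0.306), and by 0.13 without the 3 water animals. It ran from 8.34 to 8.79 in ethanol (median 8.65) and from 8.21 to 8.62 in water (median 8.51), with 6 of 10 ethanol animals above the highest water animal and animal 10 far below the other ethanol animals. Asns, asparagine synthetase, differed by 0.033 (95% interval -0.034 to 0.10), and by 0.038 without them. Ddit3 (CHOP), a factor tied to cell death in prolonged stress, differed by -0.15 (adjusted p = 0.556), at 8.98 to 9.37 in ethanol (median 9.16) and 8.96 to 9.97 in water (median 9.22). Water animals 20 and 17 held the highest values, 9.97 and 9.80, and without the 3 animals the difference was 0.026, of the opposite sign.

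Atf3, a repressor induced by many kinds of stress and by cell activation, had the widest difference of the group, on a dim probe set. It ran from 5.603 to 8.16 in ethanol (median 6.44) and from 5.20 to 6.70 in water (median 5.71). 5 of 10 ethanol animals and 1 of 10 water animals reached the dim level of 6.65, and 4 ethanol animals lay above the highest water animal. In a fit of all probe sets without the filter the difference was 0.84 (95% interval 0.32 to 1.37, adjusted p = 0.318), so it did not pass there either, and without the 3 water animals it was 0.67. Trib3, a pseudokinase that dampens ATF4, was below the dim level in all 20 animals, at 6.13 ± 0.14 and 6.13 ± 0.20 (SD, n = 10 each), with a difference of 0.0054, and of 0.00090 without the 3 water animals.

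The mean of the 15 chaperones was set against that of the 5 ATF4-type targets in each animal, as deviations from each gene's mean over all arrays. These means are descriptions and carry no p-value, since the genes were chosen with results known. The chaperone mean was -0.034 ± 0.049 in ethanol and 0.034 ± 0.080 in water (SD, n = 10 each), a difference of -0.069, with 9 of 10 ethanol animals below the water mean. Its highest values were those of water animals 20, 19 and 17, at 0.20, 0.11 and 0.081, above the highest of the other 17 animals, 0.038. Without them the difference was -0.028.

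The ATF4-type mean was 0.091 ± 0.13 in ethanol and -0.091 ± 0.12 in water, a difference of 0.18, and it was 0.17 without the 3 water animals. Chaperones minus ATF4-type targets was -0.125 ± 0.13 in ethanol and 0.125 ± 0.13 in water, a difference of -0.25. The balance lay below the water mean in 10 of 10 ethanol animals, and it ran from -0.30 to 0.051 in ethanol and from -0.071 to 0.34 in water, so the groups overlapped, and without the 3 water animals the difference was -0.20. Atf3 carried most of this. Without that 1 gene the ATF4-type mean differed by 0.015 and the balance by -0.084, at -0.13 to 0.12 in ethanol and -0.082 to 0.20 in water. Without Atf3 and the 3 animals they differed by 0.048 and -0.076.

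**Figure D3:**
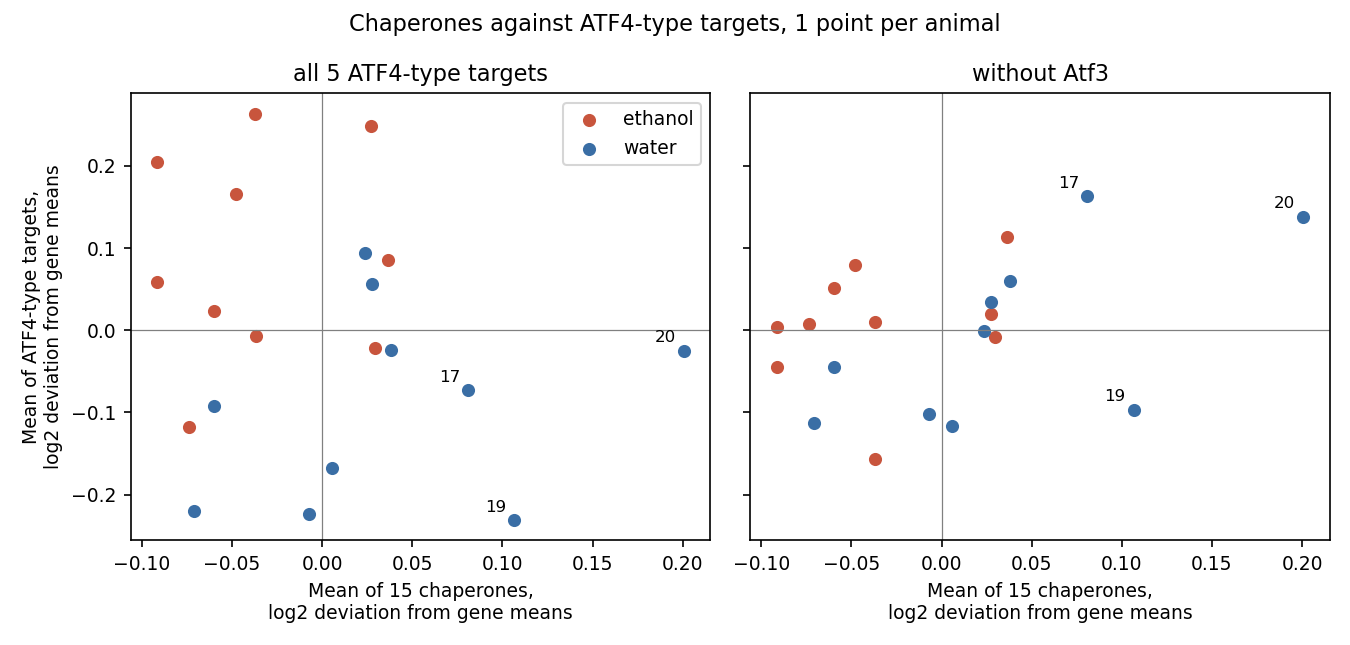
Mean deviation of the 15 chaperones (horizontal, log2) against that of the ATF4-type targets (vertical, log2), 1 point per animal, with all 5 targets on the left and without Atf3 on the right, and with water animals 17, 19 and 20 numbered. On the left 4 of 10 ethanol points lie above the highest water point, with a difference of 0.18 between group means on the vertical axis, and on the right the groups mix, with a difference of 0.015.

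Within the groups the chaperones varied together from animal to animal. Over the 105 pairs of chaperones the median r of deviations from the group means was 0.31 across the 20 animals, beside 0.022 over all pairs of genes tested, and 25.7% of the pairs were above 0.5, beside 8.92%. Without water animals 17, 19 and 20 the median was 0.20, beside 0.025, and 13.3% of the pairs were above 0.5, beside 7.61%. The median was 0.21 in the ethanol animals alone (0.020 over all pairs of genes) and 0.43 in the water animals alone (0.025). Manf and Pdia6 followed the mean of the other chaperones most closely, with r = 0.81 and 0.80 (0.75 and 0.57 without the 3 animals). Dnajb11 ran against it over all animals (r = -0.26) but not without the 3 (0.25). All points share arrays and normalization, and these values carry no test.

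Of the genes outside the chaperones, Ddit3 followed the chaperone mean most closely (r = 0.79, and 0.57 without the 3 animals), followed by Sec62 (0.66 and 0.57), Herpud1 (0.64 and 0.34), Atf4 (0.62 and -0.043) and Xbp1 (0.59 and 0.60). Ppp1r15a did not (-0.27 and -0.19), nor did Asns (0.28 and 0.15). Ddit3 and Atf4 were the pair with the highest r of all 496, 0.84, which was 0.50 without the 3 animals. The r of Ddit3 with the other bright ATF4-type targets was -0.092 for Ppp1r15a and 0.14 for Asns. Without the 3 animals both took the opposite sign, 0.14 and -0.062.

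Atf6, the membrane-bound sensor, ran against many of the genes. The 5 lowest r of all pairs each included it, with Syvn1 (-0.76), Atf4 (-0.69), Sec63 (-0.65), Edem1 (-0.63) and Creld2 (-0.62). Without the 3 water animals these were -0.72, -0.71, -0.62, -0.75 and -0.48. With the chaperone mean the r of Atf6 was -0.25 over all animals and 0.15, of the opposite sign, without the 3. Water animal 12, kept in both sets of r, had the highest Atf6 value, 11.11 (next water value 10.90). It also had the lowest water value of each partner: Syvn1 9.80, Atf4 11.43, Sec63 9.78, Edem1 9.08 and Creld2 9.44. How far these r rest on this animal was not tested. The Atf6 mRNA is not the cleaved factor.

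**Figure D4:**
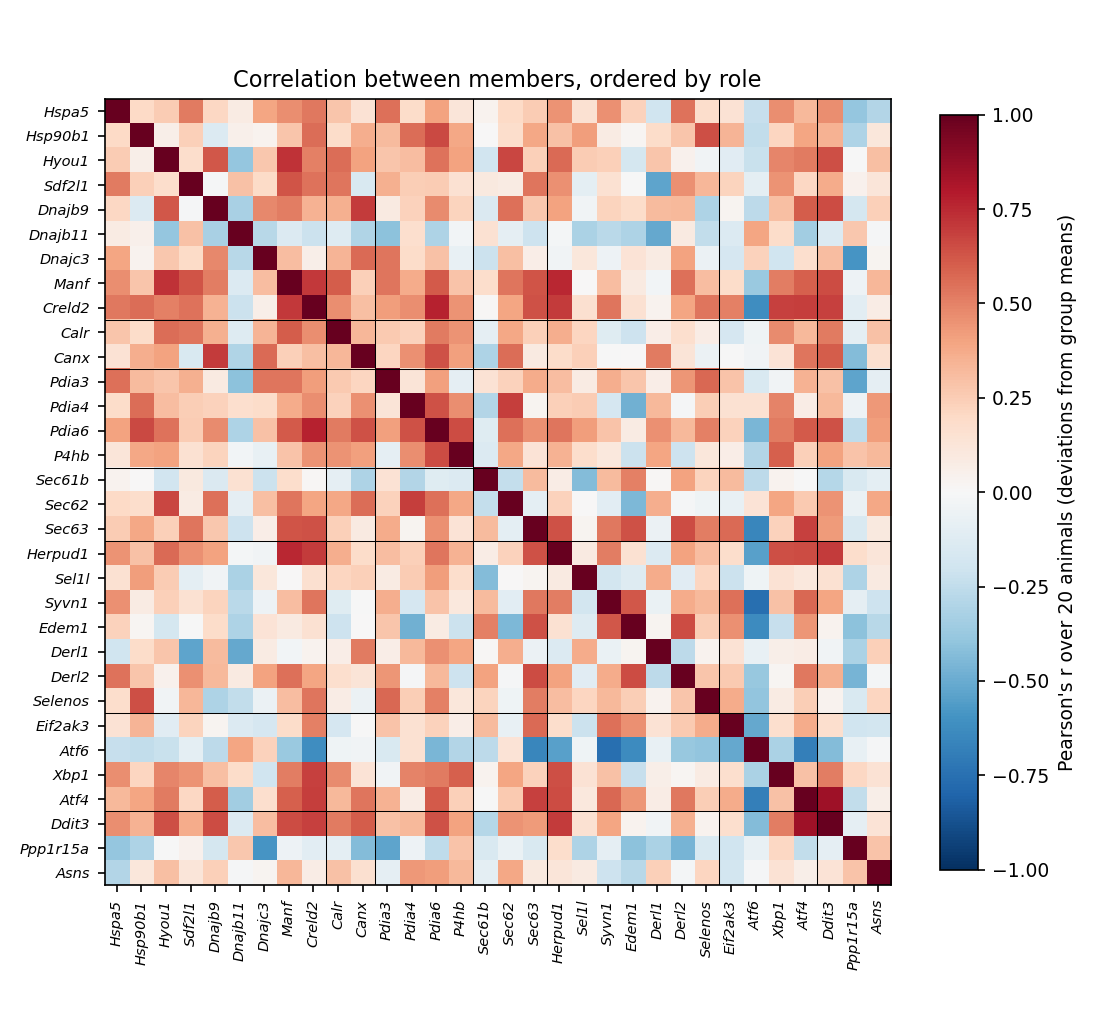
Pearson's r between the 32 ER genes above the dim level over 20 animals, computed on deviations from the group means and ordered by role, from -1 (blue) to 1 (red). The chaperones and isomerases form a mostly red block with a median of 0.31, Ddit3 is red with them, and the row of Atf6 is mostly blue, down to -0.76 with Syvn1.

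Outside the ER group, the genes most like the chaperone mean over the 20 animals were Mapkapk2 (r = 0.92), Ssbp3 (0.90), Vsir (0.89), Glb1 (0.88), Ube2ql1 (0.88), Traf3 (0.87), Paqr7 (0.87), Bok (0.86), Fzr1 (0.86) and Vangl2 (0.86). The ranking covered the tested genes outside the group, except those whose symbol begins with LOC or RGD. Mapkapk2 stayed first without the 3 water animals (0.89). Ssbp3, Traf3, Bok and Vsir then ranked 3, 5, 6 and 8 (r = 0.80, 0.75, 0.75 and 0.74). Glb1, Paqr7, Ube2ql1, Vangl2 and Fzr1 ranked 12, 15, 20, 28 and 55 (r = 0.72, 0.70, 0.70, 0.67 and 0.64). Of the 10, 9 had a negative difference between the groups and none passed (adjusted p from 0.425 to 0.963).

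Some other measures moved with the chaperone mean, and some did not. Its within-group r was -0.78 with the spiny neuron markers, 0.79 with the microglial markers, 0.71 with the septum, pallidum and basal forebrain markers, 0.61 with the astrocyte markers, 0.53 with the oligodendrocyte markers and -0.75 with an array's median correlation with the other arrays. Without the 3 water animals these were -0.42, 0.52, 0.33, 0.155, 0.24 and -0.42. With the endothelial markers the r was 0.056, and -0.063 without the 3 animals. For the 1 choroid plexus marker and the 2 cortical markers above the dim level it was 0.042 and -0.021 (0.10 and 0.32). The mean of the 6 septal, pallidal and basal forebrain markers above the dim level was 9.14 in water animal 20 and 8.46 to 8.87 in the other animals. Between the groups the spiny neuron list was 0.27 higher in ethanol, with all 13 members higher. The oligodendrocyte list differed by -0.18 with 9 of 9 lower, the microglial list by -0.088 with 9 of 10 lower, the astrocyte list by -0.074 with 6 of 9 lower, and the septal, pallidal and basal forebrain list by -0.035 with 3 of 6 lower. Of these genes 0 passed (limma). The part of these measures in the chaperone difference was not tested beyond the fits given here. Without the 3 animals the 5 lists differed by -0.016, -0.023, -0.029, -0.013 and 0.055 in this order. The endothelial list differed by 0.047 with 3 of 8 lower, and the 2 cortical markers by 0.079 (0.056 and 0.051 without the 3 animals). With the spiny neuron list as a covariate the chaperone mean differed by -0.031, and 10 of 15 chaperones were negative. The 3′ minus 5′ signal of the beta-actin, GAPDH and hexokinase control probe sets, a sign of RNA quality and labelling, was 1.16 ± 0.11 in ethanol and 1.29 ± 0.15 in water (SD, n = 10 each). Its within-group r with the chaperone mean was 0.13, and 0.37 without the 3 animals. With it as a covariate the chaperone mean differed by -0.060 and Sec62 by -0.17.

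**Figure D5:**
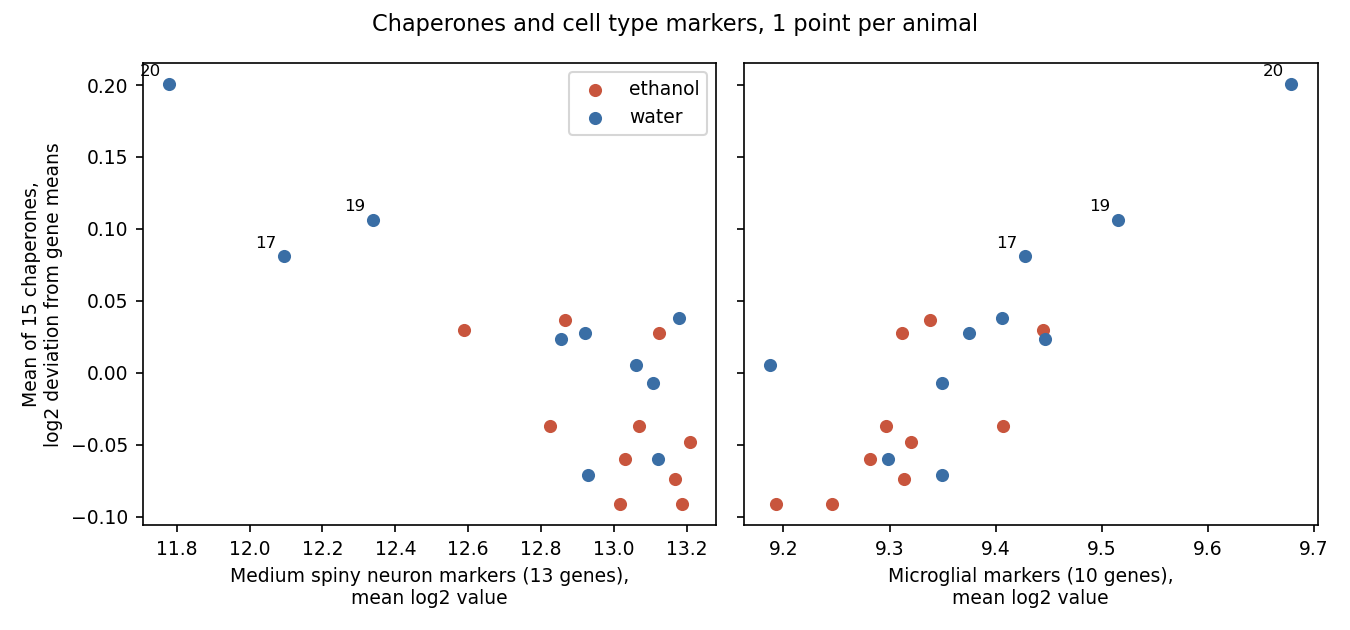
Mean deviation of the 15 chaperones (vertical, log2) against the mean log2 value of 13 medium spiny neuron markers (left) and of 10 microglial markers (right), 1 point per animal, with water animals 17, 19 and 20 numbered. These 3 animals hold the highest chaperone means (0.081 to 0.20), the lowest spiny neuron means and 2 of the 3 highest microglial means.

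The other genes of the pathway, from lists drawn up by function, gave no call either. Of 80 tested, 0 were higher and 0 lower (limma, adjusted p from 0.287 to 0.999), 50 (62.5%, beside 49.9% of all genes) were negative and 30 positive, and the median difference was -0.025. At an unadjusted p under 0.05, 6 were lower and 1 higher, 7.5 and 1.25% beside 4.77 and 5.24% of all genes. Without the 3 water animals 40 of 80 (50.0%) were negative, beside 44.5% of all genes.

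Folding enzymes outside the group were negative in 11 of 16, and in 9 of 16 without the 3 animals. Fkbp2, a prolyl isomerase of the ER, was lower by 0.19 (adjusted p = 0.287, and -0.10 without the 3 animals), Tmx1, a membrane-bound thioredoxin, by 0.17, Dnajc1 by 0.11 and Sil1, the exchange factor of BiP, by 0.071. Tmx1 was -0.041, Dnajc1 -0.16 and Sil1 -0.072 without the 3 animals. In entry and signal peptide cleavage 13 of 17 were negative, among them Sec11c (-0.11) and Srp9 (-0.076), while Spcs3, a signal peptidase subunit, and Ssr3, of the translocon-associated complex, differed by 0.12 and 0.078. Without the 3 animals 9 of 17 were negative, and Sec11c, Srp9, Spcs3 and Ssr3 differed by -0.016, -0.052, 0.073 and 0.044.

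Of 14 further degradation genes 10 were negative, with Ube2g2 at -0.093, Rnf139 and Nploc4 each at -0.065, and Ube2j1 at 0.086, and the median was -0.032. Without the 3 animals 6 of 14 were negative and the median was 0.018, with Ube2g2, Rnf139, Nploc4 and Ube2j1 at -0.093, -0.060, -0.047 and 0.076. Regulators leaned the other way, 7 of 9 positive, including both proteases that cut ATF6, Mbtps1 (0.083) and Mbtps2 (0.10), with Wfs1 at 0.14 and Tmbim6 at 0.035. Without the 3 animals 3 of 9 were negative, with Mbtps1, Mbtps2, Tmbim6 and Wfs1 at 0.068, 0.062, 0.024 and -0.076. In the wider integrated stress response 14 of 24 were negative, and 13 of 24 without the 3 animals. Ddit4, Atf5, Mthfd2 and Aars1, all reported targets of ATF4, differed by -0.20, -0.16, -0.14 and -0.11, in the direction opposite to Ppp1r15a (adjusted p from 0.327 to 0.473), and by -0.18, -0.10, -0.069 and -0.027 without the 3 animals.

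Of 12 chaperones with a promoter entry, the 8 with an ERSE or ERSE-II had a median difference of -0.042, from -0.21 (Hyou1) to -0.0086 (Hsp90b1). The 4 without had a median of -0.076, from -0.096 (Dnajb9) to -0.020 (Sdf2l1). Leaving out water animals 17, 19 and 20, the 8 ran from -0.12 (Hyou1) to 0.026 (Canx). The 4 then ran from -0.056 (Pdia4) to -0.0047 (Dnajb9). The ranges overlap in each case, and the difference between the sets was not tested.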

How the data were processed

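RNA of the nucleus accumbens shell of 20 rats was measured on 1-colour 3′ expression arrays. Per the labels' protocols, biotinylated cRNA was made from total RNA with a 3′ in vitro transcription kit. Per the submitters' processing notes the authors used RMA, and the deposited values are on the log2 scale, from 3.89 to 16.25. Software and chip definition: not given in the sources used here. Such normalization understates changes of dim probe sets and removes a shift common to most genes. The number of arrays limits the precision.

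Of 31099 probe sets, 20826 have 1 gene symbol in the platform's annotation, 436 several, 9780 none, and 57 are controls. For all 34 genes described, the identifier carries the same symbol in RefSeq. The 33.3% of probe sets with the lowest mean and the controls were left out, which left 20695. Groups were compared with limma 3.58.1 in R 4.3.3 (lmFit, eBayes, two-sided, Benjamini-Hochberg, threshold 0.05). No label gives a batch, and nothing but the titles shows that the animals are separate. The p-values measure the spread between these arrays. The fit was tested on simulated data. Genes and lists were chosen with earlier results of these data known. All genes of the group are named, and of other pathway genes those that passed or the 4 of smallest p per list. The pairs of genes named for their correlation were chosen after their values were seen. Alternatives changed the filter, normalization, variance model, weights, covariates, arrays and probe sets. Promoter stretches come from RefSeq, assembly GRCr8.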

Additional observations from a re-analysis of the deposited data

Results flagged for a closer look

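A value far from the rest of its group (Dixon's test, which chance passes in about 1 group of 20) was found in 8 of 114 groups examined. Water animal 20 accounted for 5 of them. It was high for Hyou1 (9.41, next 8.76), Calr (10.94, next 10.77) and Srp9 (12.25, next 12.08), and low for Spcs3 (12.09, next 12.31) and Mbtps2 (9.72, next 10.003). Water animal 19 was high for Derl2 (9.44, next 9.29), and water animal 12 was low for Eif2ak3 (9.01, next 9.20). Ethanol animal 10, which had the highest Atf3 value, was low for Ppp1r15a (8.34, next 8.57).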

How the results depend on the processing

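The count of ER genes past the threshold was 0 in each of 10 alternatives, with 2 to 6 at an unadjusted p under 0.05. Probe sets past the threshold numbered 20, and 10 with the lower 50% of probe sets left out, 38 with array weights, 8 with the 3′ minus 5′ covariate, 49 with the spiny neuron covariate, 50 without water animals 17, 19 and 20, and 10 (genes) with the mean of probe sets. The chaperone mean kept its sign, from -0.069 to -0.028. Leaving out Atf3, chosen after seeing the data, gave 0.015 for the ATF4-type mean and -0.084 for the balance. No paired analysis was possible because the groups share no animal numbers. Genes whose difference took the opposite sign follow, and the causes were not tested. With quantile normalization, this was Selenos 0.00076. With array quality weights, they were Dnajc3 0.0055, Sec63 -0.012 and Edem1 -0.046. With the 3′ minus 5′ covariate, they were Dnajb11 0.041, Sec63 -0.031, Edem1 -0.080, Derl2 -0.0057 and Atf4 -0.022. With the medium spiny neuron covariate, they were Hsp90b1 0.0093, Dnajc3 0.0055, Manf 0.0055, Creld2 0.014, Canx 0.020, Derl1 0.0053 and Selenos 0.0022. Without water animals 17, 19 and 20, they were Hsp90b1 0.0082, Dnajc3 0.026, Manf 0.010, Creld2 0.015, Canx 0.026, Ddit3 0.026 and Wfs1 -0.076. Without water animals 12, 17 and 20, the arrays of lowest median correlation with the others, they were Dnajc3 0.011, Canx 0.0096, Sec63 -0.0086 and Edem1 -0.049. With the mean of probe sets, they were Sec63 -0.079 and Derl1 0.021.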
